A study of Mus musculus with 4 samples.

Results

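The replication-dependent histone genes were taken from the mouse annotation by name. A gene belonged to the group when its mm9 symbol began with Hist1h, Hist2h, Hist3h or Hist4h and went on with more characters. This gave 70 genes, of which 68 had an exon block of their own among the 20831 genes with counted reads. Hist1h2aj and Hist1h2al had no exon block of their own. The annotation called 66 of the 68 protein coding and the other 2, Hist2h3c2 and Hist3h2bb-ps, pseudogenes. By the histone they encode, 6 were H1, 18 were H2A, 19 were H2B, 12 were H3 and 13 were H4 genes. The Hist1 cluster on chromosome 13 held 54 of them, the Hist2 cluster on chromosome 3 held 10, the Hist3 cluster on chromosome 11 held 3, and Hist4h4 stood alone on chromosome 6.

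The study sequenced RNA of small intestine (jejunum, by the study's methods) and colon (distal colon) from untreated C57BL/6 mice aged 9 to 10 weeks with SOLiD machines. Each tissue was sequenced as a cDNA library, in which polyadenylated RNA was copied from an oligo-dT primer with a template switch (SMART) and then fragmented, and as a library that GEO's labels call ribosomal RNA depleted, made with the Whole Transcriptome Analysis Kit by fragmenting the RNA itself and ligating adaptors in a known direction. Each tissue and protocol had 1 library. The spread between animals is therefore not known here and no test was made. The methods speak of poly(A) enrichment also for the RNA-fragmentation protocol, whereas the labels speak of ribosomal RNA depletion. The RNA-fragmented libraries of the methods were deeper than the ones analysed here, so that statement may describe other libraries. Both statements are given here because the histone transcripts turn on that step, and the libraries are named rRNA-depleted as labelled. The tissues came from the same animals, by the text of the study. Whether both protocols used the same mice is not stated in the sources used here.

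Histone mRNAs of this family are made mainly in S phase, when new DNA has to be packed into nucleosomes. Their usual end is not a poly(A) tail but a short stem-loop, which is bound by the stem-loop binding protein Slbp and behind which the U7 snRNP directs cleavage. Some of the genes can also give longer, polyadenylated transcripts from a signal further downstream, mostly described in cells that have left the cycle. In the intestine, the dividing cells lie in the crypts.

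The stem-loop was searched in mm9 on the strand of each gene, in the exon block and the 150 bases after it, as 6 paired bases that open with GG around a loop of 4 bases that opens with TT. It was found in 64 of the 68 genes (94.1%). Of 20592 other genes, 45 (0.219%) held a match in their last exon and the 150 bases after it. Another member, Hist1h2an, had a stem with 1 unpaired pair, and in Hist1h3g, Hist1h4a and Hist2h2be no match was found in this window. The following 26-base windows carry the genes on which the results turn, with the 16 bases of stem and loop in capitals and 5 flanking bases on each side, 5′ to 3′ on the strand of the gene.
Hist1h1e (chr13:23713646-23713671, minus strand): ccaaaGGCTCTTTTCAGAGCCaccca
Hist1h1c (chr13:23831376-23831401, plus strand): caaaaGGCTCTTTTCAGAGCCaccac
Hist1h2ac (chr13:23775341-23775366, minus strand): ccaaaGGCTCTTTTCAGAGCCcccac
Hist3h2a (chr11:58768669-58768694, plus strand): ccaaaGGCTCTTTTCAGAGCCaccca
Hist2h2bb (chr3:96074089-96074114, plus strand): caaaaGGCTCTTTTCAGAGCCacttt
Hist1h2bc (chr13:23776511-23776536, plus strand): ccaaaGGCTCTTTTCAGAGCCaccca
Hist1h3f (chr13:23636796-23636821, plus strand): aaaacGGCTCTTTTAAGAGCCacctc
Hist1h3h (chr13:21809959-21809984, plus strand): tcaaaGGCTCTTTTCAGAGCCaccca
Hist1h4h (chr13:23623322-23623347, plus strand): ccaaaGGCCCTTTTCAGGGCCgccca
Hist1h4i (chr13:22132830-22132855, minus strand): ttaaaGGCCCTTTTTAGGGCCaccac

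The 64 genes used 6 distinct cores. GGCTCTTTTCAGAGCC stood in 42 genes of the H1, H2A, H2B and H3 classes, and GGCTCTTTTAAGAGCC in 9 genes of the same classes. The H4 genes had cores of their own. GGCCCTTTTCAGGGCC was found in 8 of them, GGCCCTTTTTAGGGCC in 2 and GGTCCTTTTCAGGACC in 2, and none of these stood in another class. The last core, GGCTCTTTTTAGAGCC, was found in Hist2h2ac and as the farther of the 2 matches in Hist1h2bn. The genes that were abundant only in the rRNA-depleted libraries and those that were abundant in the cDNA libraries had the same core in many cases, as the lines of Hist1h1e and Hist1h1c or of Hist2h2bb and Hist1h2bc show.

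The libraries differed strongly in depth. The cDNA libraries held 22484041 (small intestine) and 24798934 (colon) uniquely placed reads out of 77504263 and 83302412, and the rRNA-depleted libraries 2035386 and 3478387 out of 36419942 and 37466674. Reads per 1000000 uniquely placed reads are written RPM, and levels are given as RPKM, which is RPM per kilobase of exon block. A protocol ratio is the RPKM in the rRNA-depleted library over that in the cDNA library of the same tissue. A gene was called higher in a library when its RPKM was at least 3 times that in the other library plus 1 RPKM. All intervals are exact or Wilson intervals at the 95% level and cover counting error only, as does the limit of 3 reads set behind a count of 0. The tissues carried their markers: 6 of 6 small intestinal markers were called higher in small intestine in both protocols, and of 6 colon markers 4 were called higher in colon in the cDNA libraries and 5 in the rRNA-depleted libraries.

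Histone reads made up a larger share of the rRNA-depleted than of the cDNA libraries. The 68 genes together had 4291 reads in the small intestinal cDNA library, 8363 in the colon cDNA library, 1070 in the small intestinal rRNA-depleted library and 2908 in the colon rRNA-depleted library. In RPM these were 190.8 (185.2 to 196.6), 337.2 (330.0 to 344.5), 525.7 (494.7 to 558.2) and 836.0 (805.9 to 867.0). The protocol ratio of the sum was 2.76 (2.57 to 2.95) in small intestine and 2.48 (2.38 to 2.59) in colon. The sums of RPKM were 219.0 and 706 in small intestine and 342 and 1125 in colon for the cDNA and the rRNA-depleted library. When the libraries were scaled by the median of ratios over 13993 genes, every log2 protocol ratio fell by 0.61 in small intestine and by 0.63 in colon, and the ratio of the sum was 1.81 and 1.61. Counted as start points, in which equal reads count as 1, it was 2.64 (2.38 to 2.94) and 1.56 (1.44 to 1.68). Ratios in start points were added after the data were seen. By gene, the ratio was above 1 in reads in 24 of the 28 histone genes of small intestine and 34 of the 38 of colon with a read in both libraries. In start points it stayed above 1 in all 24 and in 33 of the 34, Hist1h4i being the exception, but among these genes the ratio in reads was a median of 1.994 and 1.86 times that in start points. These counts by gene are in large part set in advance. A gene needed a read in the rRNA-depleted library, the shallower one, and in colon 1 read against 1 gave 7.13. The share over all genes was not computed. In whole tissue, more dividing cells and more histone RNA per cell cannot be told apart.

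In the comparison of protocols, 27 of the 68 genes (39.7%) were called higher in the rRNA-depleted library of small intestine, against 8.91% of all genes, and 26 (38.2%) in colon, against 9.68% of all genes. Both tissues shared 25 of these calls, while 5.71% of all genes were called in both. Hist1h1d and Hist2h3c2 were called in small intestine alone and Hist1h4i in colon alone. In the opposite direction, Hist1h2bc was the 1 gene called higher in the cDNA library of small intestine (all genes 6.18%), and 0 genes were called so in colon (all genes 6.08%). With 1 RPKM added to both values, the log2 ratios of the 68 genes had a median of 1.09 (small intestine) and 0.79 (colon), and those of all genes a median of 0.0 in both tissues. The median of the 68 moved with the setting. It was 0.0 in both tissues with at most 1 color mismatch, and 3.92 and 3.36 over the 37 genes with at least 10 reads. Other genes with at least 10 reads had medians of 0.20 and 0.30. Some of the 37, such as Hist1h2bk with 0 cDNA reads, passed this filter only through the rRNA-depleted libraries. The median of the 37 is thus partly set by the filter.

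Among other genes with short exon blocks, calls in the opposite direction were the more frequent. Some histone blocks were longer than this class, such as those of Hist1h1c (1560 bases) and Hist1h1e (1930 bases). Of 1273 other genes with 300 to 800 exon bases, 1.81% were called higher in the rRNA-depleted library in small intestine and 1.57% in colon, whereas 25.9% and 26.2% were called higher in the cDNA library. Of 154 other genes with a single exon of that length, 4.55% were called higher in the rRNA-depleted library in each tissue, and 8.44% and 9.09% in the cDNA library. A gene without a read cannot be called. Only 905 of the 1273 and 69 of the 154 had a read in any library, against 54 of the 68 histone genes.

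**Figure D1:**
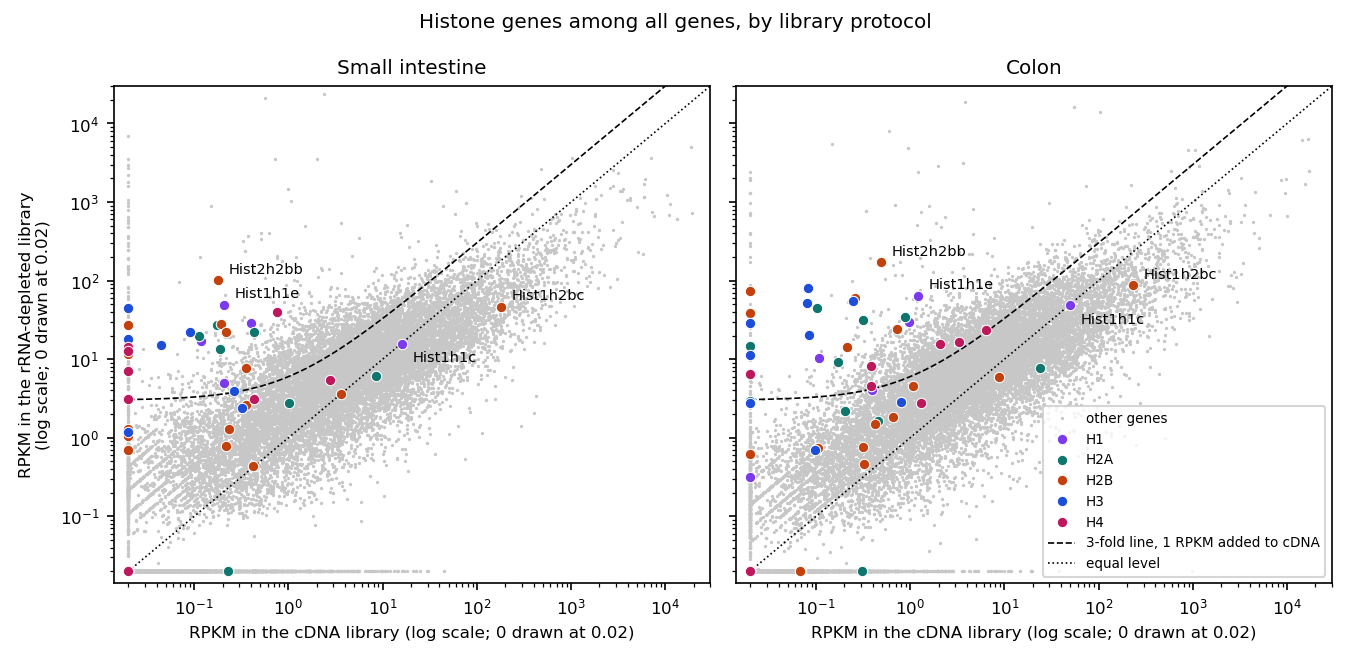
RPKM of every gene in the cDNA library (horizontal axis) and in the rRNA-depleted library (vertical axis) of small intestine and colon, both on log scales, with histone genes coloured by class and other genes in grey. The dashed line is the limit for a call, above which 27 histone genes lie in small intestine and 26 in colon, and Hist1h2bc is the histone gene farthest to the right in both panels.

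A few genes held nearly all of the histone reads in the cDNA libraries. Hist1h2bc, Hist1h1c, Hist3h2a and Hist2h2be, picked as the 4 with most cDNA reads, had 96.0% of the histone reads in the small intestinal and 94.7% in the colon cDNA library, but 15.2% and 20.3% in the rRNA-depleted libraries. Their pooled protocol ratio was 0.437 (0.372 to 0.511) in small intestine and 0.532 (0.489 to 0.579) in colon. The other 64 genes had 172, 444, 907 and 2317 reads in the order cDNA small intestine, cDNA colon, rRNA-depleted small intestine and rRNA-depleted colon, an order kept for the values below. In RPM that was 7.65, 17.9, 445.6 and 666, or 58.3 times (49.4 to 69.0) more in the rRNA-depleted library of small intestine and 37.2 times (33.6 to 41.3) more in that of colon. The median-of-ratios scaling gave 38.2 and 24.1. In start points these genes had 158, 392, 351 and 547, a smaller gap than in reads. Since the 4 genes were chosen by their cDNA reads, this split is a description.

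Read counts of these genes were also limited by copies of their sequence. The 35-base positions in the blocks were compared with the exon blocks of all genes, in both orientations. Of these positions, 20753 (45.9%) had an identical copy elsewhere. Another 21334 (47.1%) differed from every other position by more than the 3 color mismatches that the authors allowed. Only uniquely placed reads were kept, and 14 of the 68 genes had no read in any library, 13 of which had no uniquely placeable position. These were 5 H2A genes, 1 H2B gene, 2 H3 genes and 6 H4 genes, and nothing is known here of their level. In all, 54 genes had a read and 37 had at least 10. A further 10 genes, among them Hist1h2bl, Hist1h2bm, Hist1h2bj and Hist1h3d, had between 1 and 60 reads although no position of theirs was uniquely placeable, and their counts are uncertain. Among genes with uniquely placeable positions and at least 10 rRNA-depleted reads over both tissues, the same holds in part for 5. Fewer than 50% of these reads lay at uniquely placeable positions in Hist1h2ak (2.78%), Hist1h4d (14.3%), Hist2h2ac (16.2%), Hist1h2bg (29.1%) and Hist1h3c (41.2%).

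Among the H1 genes, the linker histones that sit on the DNA between nucleosomes, all 6 had a read. They fell into genes that were almost absent from the cDNA libraries and a gene, Hist1h1c, that was level in both protocols when counted in reads. Hist1h1e had 9, 58, 194 and 431 reads, which are 0.207, 1.21, 49.4 and 64.2 RPKM, so both rRNA-depleted libraries lay far above both cDNA libraries. Its protocol ratio was 238 (123 to 529) in small intestine and 53.0 (40.2 to 71.0) in colon, and in start points 55.3 (27.0 to 127.5) and 9.53 (6.63 to 13.8). Its block contains an exon also given to Hist1h2be.

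Hist1h1b and Hist1h1a also lay higher in both rRNA-depleted than in both cDNA libraries. Hist1h1b had 6, 16, 39 and 70 reads (0.397, 0.960, 28.5 and 29.9 RPKM) with ratios of 71.8 (30.2 to 208) and 31.2 (17.9 to 57.5). Hist1h1a had 2, 2, 26 and 27 reads (0.119, 0.108, 17.1 and 10.4 RPKM) with ratios of 144 (36.0 to 1248) and 96.3 (24.2 to 835). Hist1h1d was lower in the rRNA-depleted libraries than these, with 14, 29, 30 and 42 reads (0.209, 0.393, 4.95 and 4.06 RPKM) and ratios of 23.7 (12.2 to 48.3) and 10.3 (6.28 to 17.2).

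Hist1h1c had 566, 1940, 50 and 262 reads, which are 16.1, 50.1, 15.7 and 48.3 RPKM. In reads the protocols did not differ beyond counting error in either tissue, with ratios of 0.976 (0.716 to 1.30) and 0.963 (0.843 to 1.1), while the median-of-ratios scaling gave 0.640 and 0.623. In start points the ratios were 0.789 (0.5485 to 1.105) and 0.811 (0.675 to 0.968), the latter below 1 beyond counting error. Hist1h1t, the testis H1, had 0, 0, 0 and 1 reads. For the class as a whole the ratio was 6.27 (5.47 to 7.18) in small intestine and 2.90 (2.68 to 3.15) in colon, and 4 and 3 of the 6 genes were called. In start points the class ratio was 2.98 (2.46 to 3.59) and 1.62 (1.42 to 1.84). Hist1h1c held 566 of the 597 and 1940 of the 2045 cDNA reads of the class.

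The H2A genes encode the partner of H2B in the nucleosome core, and 13 of 18 had a read. Pooled, their ratio was 5.50 (4.64 to 6.497) in small intestine and 2.93 (2.64 to 3.25) in colon, and the same 5 genes were called in both tissues. In start points the ratio was 2.11 (1.63 to 2.69) in small intestine and 0.925 (0.762 to 1.115) in colon, so the pooled direction in colon was not kept. Hist3h2a held 316 of the 361 and 732 of the 801 cDNA start points of the class. With rRNA depletion it held 22 of 81 and 38 of 129. The pooled cDNA value thus mostly reflects that gene. The highest value in an rRNA-depleted library was that of Hist2h2ac in colon. This gene had 0, 1, 13 and 61 reads (0, 0.103, 16.4 and 45.0 RPKM) and was at least 47.9-fold higher in small intestine and 435-fold (75.2 to 17460) in colon, but only 2 of the 13 and 10 of the 61 reads lay at uniquely placeable positions. In start points its colon ratio was 40.2 (5.16 to 1812). Hist1h2ac had 24, 54, 111 and 300 reads (0.428, 0.873, 21.9 and 34.6 RPKM), with ratios of 51.1 (32.6 to 83.1) and 39.6 (29.6 to 54.0). Of its rRNA-depleted reads, 74 of 111 and 229 of 300 began at a single position, and in start points (24, 47, 17 and 30) the ratios were 6.65 (3.35 to 12.9) and 3.67 (2.24 to 5.92). Neither gene had an rRNA-depleted value near its cDNA values.

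Hist1h2ab had 2, 4, 28 and 56 reads (0.176, 0.319, 27.2 and 31.8 RPKM) and ratios of 155 (39.0 to 1340) and 99.8 (36.9 to 379). Hist1h2ak had 1, 0, 16 and 20 reads and a ratio of 177 (27.5 to 7412) in small intestine and at least 47.5-fold more in colon, with 0 of the 16 and 1 of the 20 reads at uniquely placeable positions. Hist3h2a went the other way. It had 379, 1182, 25 and 53 reads (8.47, 24.0, 6.17 and 7.66 RPKM), and its ratio was 0.729 (0.466 to 1.092) in small intestine, within counting error of 1, and 0.320 (0.238 to 0.421) in colon, while the median-of-ratios scaling gave 0.478 and 0.207. It shares its block with the annotation of Trim17 on the same strand, and the reads of both could not be told apart. Hist1h2ae had 16, 8, 4 and 4 reads, too few to separate the protocols (2.76, 0.672 to 8.56, and 3.57, 0.786 to 13.3). The testis-type Hist1h2aa had 2, 3, 0 and 0 reads.

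The H2B genes, of which 18 of 19 had a read, held both the gene with most cDNA reads and the gene with the highest level in the rRNA-depleted libraries. Hist2h2bb (chr3:96073623-96074115, plus strand, a single exon) had 2, 6, 101 and 293 reads, which are 0.180, 0.491, 101 and 171 RPKM. Its ratio was 558 (150.5 to 4669) in small intestine and 348 (158 to 956) in colon, and in start points 159.6 (40.9 to 1371) and 55.5 (24.0 to 157.5). Hist1h2bc (chr13:23776068-23784349, plus strand) had 2961, 4229, 69 and 222 reads, which are 181, 234, 46.6 and 87.7 RPKM. Its ratio was 0.257 (0.200 to 0.327) in small intestine and 0.374 (0.326 to 0.428) in colon, so it was lower with rRNA depletion in both tissues, though still among the highest histone genes there. In start points the ratio was 0.550 (0.367 to 0.795) and 0.822 (0.631 to 1.058), and the interval in colon included 1. Start points of this gene were limited in the cDNA libraries. Colon had more reads there than small intestine but fewer start points (489 against 512). The start-point ratio can therefore be too high, and it does not settle whether the colon level was lower.

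Hist1h2bk had 0, 0, 21 and 98 reads (0, 0, 27.1 and 73.9 RPKM) and was at least 77.3-fold and at least 233-fold higher in the rRNA-depleted libraries, where 3 reads in a cDNA library would be 0.350 and 0.318 RPKM. These bounds count reads, whereas 11 of the 21 and 68 of the 98 began at a single position. The gene had 5 start points in each rRNA-depleted library. Hist1h2bb had 2, 3, 27 and 99 reads (0.190, 0.258, 28.3 and 60.8 RPKM), with ratios of 149 (37.5 to 1294) and 235 (78.2 to 1160). Hist2h2be, with 213, 568, 19 and 54 reads (3.62, 8.75, 3.57 and 5.93 RPKM), did not differ between protocols beyond counting error in small intestine (0.985, 0.582 to 1.58) and was lower with rRNA depletion in colon (0.678, 0.503 to 0.897), while the median-of-ratios scaling gave 0.646 and 0.439.

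Hist1h2be, with 21, 36, 2 and 14 reads, had ratios of 1.05 (0.120 to 4.304) and 2.77 (1.38 to 5.27). Hist1h2bj had 3, 10, 2 and 6 reads, and the testis-type Hist1h2ba had 0, 1, 0 and 1. Hist1h2bc held 92.2% and 86.7% of the H2B reads in the cDNA libraries and 23.7% and 24.3% in the rRNA-depleted libraries. The pooled ratio of the H2B genes was 1.0 (0.884 to 1.13) in small intestine and 1.33 (1.24 to 1.43) in colon, and with the median-of-ratios scaling it was below 1 in both (0.656 and 0.864). In start points it was 1.66 (1.37 to 1.998) and 1.42 (1.23 to 1.63), values that can be too high because the start points of Hist1h2bc were limited in cDNA. Of the 19 genes, 6 were called higher in the rRNA-depleted library in each tissue.

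The H3 genes, whose protein pairs with H4 in the inner part of the nucleosome, were the class with the fewest cDNA reads: 11 and 28 reads in the cDNA libraries stood against 158 and 531 in the rRNA-depleted libraries. The pooled ratio was 159 (86.3 to 324) in small intestine and 135 (92.5 to 205) in colon, with 7 and 6 of 12 genes called. These intervals take every read as separate, whereas in colon 121 of 135 Hist1h3h, 156 of 182 Hist1h3f and 76 of 93 Hist1h3g rRNA-depleted reads began at a single position. The class had 11, 27, 57 and 92 start points, and in these the ratio was 48.6 (25.3 to 102.9) and 19.6 (12.6 to 31.3). No H3 gene had more than 20 reads in a cDNA library, 2 had no read in any library, and Hist1h3d and Hist1h3e had too few for a comparison. Hist1h3h had 0, 1, 44 and 135 reads (0, 0.0826, 44.3 and 79.5 RPKM), at least 162-fold higher in small intestine and 962-fold (170 to 38290) in colon, where the ratio in start points was 57.4 (8.17 to 2492). Hist1h3f had 1, 2, 31 and 182 reads (0.0443, 0.0804, 15.2 and 52.2 RPKM), with ratios of 342 (57.1 to 13960) and 649 (177 to 5398), in start points 75.1 (10.07 to 3332) and 40.2 (9.23 to 364.4).

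Hist1h3g, for which no stem-loop was found in the searched window, behaved like the others, with 1, 3, 22 and 93 reads (0.0904, 0.246, 22.0 and 54.3 RPKM) and ratios of 243 (39.3 to 10030) and 221 (73.3 to 1091). Hist1h3a had 0, 0, 17 and 53 reads and was at least 62.6-fold and at least 126-fold higher. Hist1h3i had 0, 1, 18 and 34 reads, at least 66.3-fold higher in small intestine and 242-fold (40.7 to 9852) in colon. The annotated pseudogene Hist2h3c2 had 6, 20, 8 and 10 reads and the smaller ratios of 14.7 (4.48 to 51.5) and 3.57 (1.49 to 7.98), in start points 3.13 (0.309 to 17.5) and 2.42 (0.916 to 5.79), and Hist1h3d had 3, 0, 2 and 0 reads.

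Of the H4 genes, 7 of 13 had a read. They had 44, 152, 70 and 113 reads, and the pooled ratio was 17.6 (11.9 to 26.2) in small intestine but 5.30 (4.12 to 6.81) in colon, with 5 and 6 genes called, and in start points 8.94 (5.65 to 14.1) and 2.21 (1.57 to 3.07). Hist1h4h (chr13:23622919-23623388, plus strand) had 8, 74, 38 and 39 reads (0.757, 6.35, 39.7 and 23.9 RPKM). Its ratio was 52.5 (24.1 to 130) in small intestine and 3.76 (2.48 to 5.61) in colon, so the gap between protocols was smaller in colon, where the cDNA level was higher. In start points it was 19.95 (8.16 to 53.4) and 1.51 (0.811 to 2.65), the latter within counting error of 1. Hist1h4i had 33, 44, 6 and 31 reads (2.73, 3.30, 5.49 and 16.6 RPKM), with ratios of 2.01 (0.688 to 4.85) and 5.02 (3.07 to 8.14). Of the 31 colon reads 22 began at a single position, and in start points (41 against 7) the colon ratio was 0.981 (0.371 to 2.21), so the higher level with rRNA depletion in colon was not kept. Hist2h4 had 0, 18, 5 and 19 reads (0, 2.09, 7.06 and 15.7 RPKM), at least 18.4-fold higher in small intestine and 7.53-fold (3.74 to 15.2) in colon. Hist1h4d had 0, 3, 9 and 5 reads.

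**Figure D2:**
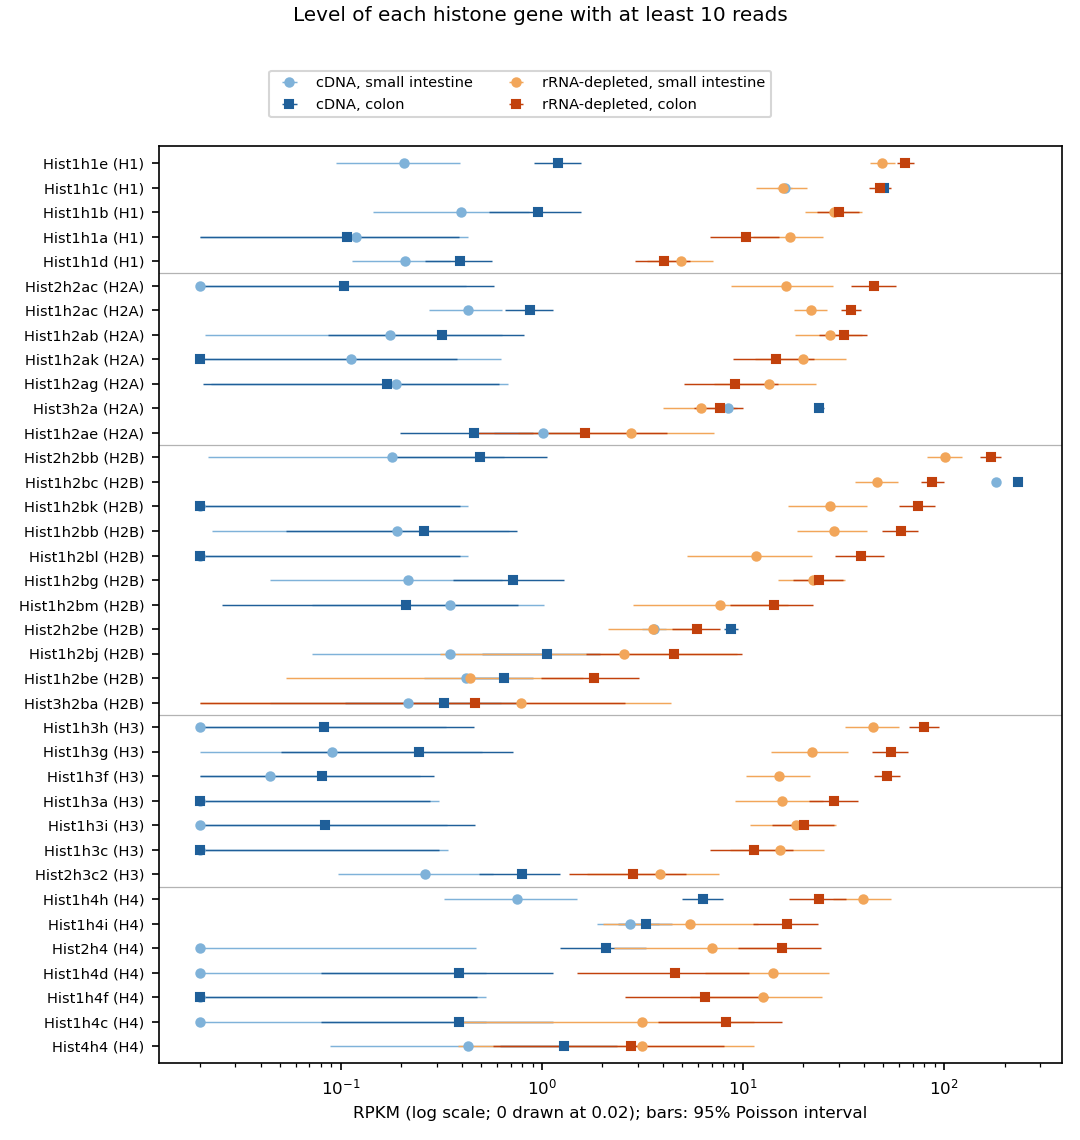
RPKM of the 37 histone genes with at least 10 reads over the libraries, on a log scale, in the cDNA (small intestine, colon) and rRNA-depleted (small intestine, colon) libraries, with 95% Poisson intervals and 0 drawn at the left edge. For most of these genes both rRNA-depleted points lie to the right of both cDNA points, and for Hist1h2bc both lie to the left. Some genes, such as Hist1h2bk, reached 10 reads only through the rRNA-depleted libraries.

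Histone reads kept their strand in the rRNA-depleted libraries, which were made by directional ligation, and not in the cDNA libraries. In the rRNA-depleted libraries, 99.4% (98.8 to 99.7) of the histone reads of small intestine and 99.86% (99.65 to 99.95) of those of colon lay on the strand of the gene. In the cDNA libraries the shares were 44.7% (43.2 to 46.2) and 40.6% (39.5 to 41.6), and 46.9% and 48.9% without Hist1h2bc. No gene with at least 10 reads in an rRNA-depleted library had fewer reads on its own strand than on the other. The cDNA reads, which carry no strand, cannot be assigned to histone transcripts rather than to transcripts of the other strand.

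The position of reads relative to the stem-loop was examined in the 17 genes whose exon block ran at least 35 bases past it, a length at which a read can lie wholly beyond. In 41 of the other genes the block ended before the stem-loop did. A read was taken as before the stem-loop when it ended at most 6 bases behind it, as past it when it began more than 6 bases behind it, and as across otherwise. Of the uniquely placeable positions of these genes, 70.0% lay past the stem-loop. The rRNA-depleted reads lay mainly before it. The pooled share of the cDNA reads was near that of the positions, but single genes stood on either side of it, Hist1h1c with more of its cDNA reads past the stem-loop than of its positions (61.3%) and Hist3h2a with fewer (79.5%).

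In the small intestinal cDNA library, 228 reads lay before, 37 across and 809 past the stem-loop, a share past of 75.3% (72.7 to 77.8). In the colon cDNA library the counts were 825, 75 and 2557, a share past of 74.0% (72.5 to 75.4). The rRNA-depleted libraries had 491, 4 and 50 reads in small intestine, a share past of 9.17% (7.03 to 11.9), and 1224, 5 and 242 reads in colon, a share past of 16.5% (14.6 to 18.4). Counted as start points, the rRNA-depleted shares were 19.7% and 34.1%. Thus the protocol ratio was above 1 before the stem-loop, at 23.8 (20.3 to 28.0) in small intestine and 10.6 (9.68 to 11.6) in colon, and below 1 past it, at 0.683 (0.503 to 0.909) and 0.675 (0.589 to 0.770). In start points the ratio before it was 7.89 (6.37 to 9.76) and 2.85 (2.45 to 3.30), and that past it 0.583 (0.415 to 0.7998) and 0.565 (0.472 to 0.672).

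Most of the reads past the stem-loop came from Hist1h1c and Hist3h2a. Without them, a choice made after the counts were seen, the share past was 70.5% and 60.3% in the cDNA libraries and 3.62% and 4.498% in the rRNA-depleted libraries, beside 69.5% of the uniquely placeable positions. The ratio before the stem-loop was then 155 (108 to 229) in small intestine and 62.9 (52.2 to 76.2) in colon, and past it 2.06 (1.15 to 3.49) and 1.84 (1.33 to 2.50). In start points these were 40.7 (27.2 to 62.7) and 10.7 (8.399 to 13.7) before it, and 1.60 (0.859 to 2.79) and 1.26 (0.868 to 1.78) past it. The direction past the stem-loop thus depended on these genes, while that before it did not.

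In genes with long annotated stretches behind the stem-loop, the protocols differed within a single block. Hist1h1e, with 1153 annotated bases behind it, had 0 reads before and 9 past in the cDNA library of small intestine and 6 before and 52 past in that of colon. In the rRNA-depleted libraries it had 190 before and 3 past in small intestine and 425 before and 6 past in colon. The Hist1h1e block contains an exon also given to Hist1h2be, and reads of both could not be told apart there. Hist1h2ac, with 2010 bases behind, had 1 before and 23 past, then 10 and 44, in the cDNA libraries, and 107 before and 4 past, then 285 and 15, in the rRNA-depleted libraries. The libraries of the protocols did not overlap in the share past, which was at least 81.5% with cDNA and at most 5.0% with rRNA depletion for Hist1h2ac, 94.0% of whose uniquely placeable positions lay past. Counted as start points, Hist1h2ac had 14 before and 3 past, then 19 and 11, with rRNA depletion. With cDNA these were 1 and 23, then 8 and 39. A stack of equal reads before the stem-loop thus lowers its share past with rRNA depletion.

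Per uniquely placeable kilobase, Hist1h2ac had in cDNA 0.494 RPM before and 0.524 past in small intestine, and 4.03 before and 0.909 past in colon. With rRNA depletion it had 568 before and 1.01 past, then 894 and 2.21. Its cDNA level was thus not higher past the stem-loop in both tissues, and the rRNA-depleted level was far higher before it. Hist1h1e had in cDNA 0.0 before and 0.360 past, then 0.459 and 1.88, against 177 before and 1.32 past, then 232 and 1.55, with rRNA depletion, so its cDNA level was the higher past the stem-loop.

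Hist1h1d had 0 before and 14 past in small intestine and 1 before and 28 past in colon with cDNA, against 24 and 6, then 28 and 14, with rRNA depletion. The gene level in both protocols when counted in reads, Hist1h1c, had 87.1% and 90.1% of its cDNA reads past the stem-loop, and with rRNA depletion still 52.0% (38.5 to 65.2) and 64.1% (58.2 to 69.7). Before the stem-loop its protocol ratio was 5.002 (2.95 to 8.25) in small intestine and 4.13 (3.16 to 5.38) in colon, and past it 0.583 (0.377 to 0.864) and 0.685 (0.581 to 0.803), so the even level over the whole block was made of unlike parts. Hist3h2a had 59.4% and 51.4% past with cDNA and 28.0% (14.3 to 47.6) and 41.5% (29.3 to 54.9) with rRNA depletion, in a block shared with Trim17. Hist2h3c2 had 6 of 6 and 18 of 20 cDNA reads past, and 0 of 8 and 2 of 10 with rRNA depletion.

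Of the rest, Hist1h3f had no read past the stem-loop in any library, including 0 of 182 in the rRNA-depleted library of colon, with 107 annotated bases there. Hist1h4h had none past either, but its block ran 46 bases on and only 6 positions there were uniquely placeable. Hist1h4i had 19 of 33 and 23 of 44 cDNA reads past, and 3 of 6 and 0 of 31 with rRNA depletion. Hist1h2bg had 2 of 3 and 4 of 11 past with cDNA, and 0 of 28 and 8 of 51 with rRNA depletion, and Hist1h2be had 11 of 12, 29 of 29, 0 of 2 and 7 of 11 past among the reads of the exon that holds its stem-loop. Hist1h3a had reads in the rRNA-depleted libraries alone, and since none of its positions past the stem-loop was uniquely placeable, no read could be seen there. The remaining genes of this set, Hist1h2ae, Hist3h2ba, Hist1h1t, Hist2h2aa1 and Hist2h2aa2, had at most 16 reads in a library.

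**Figure D3:**
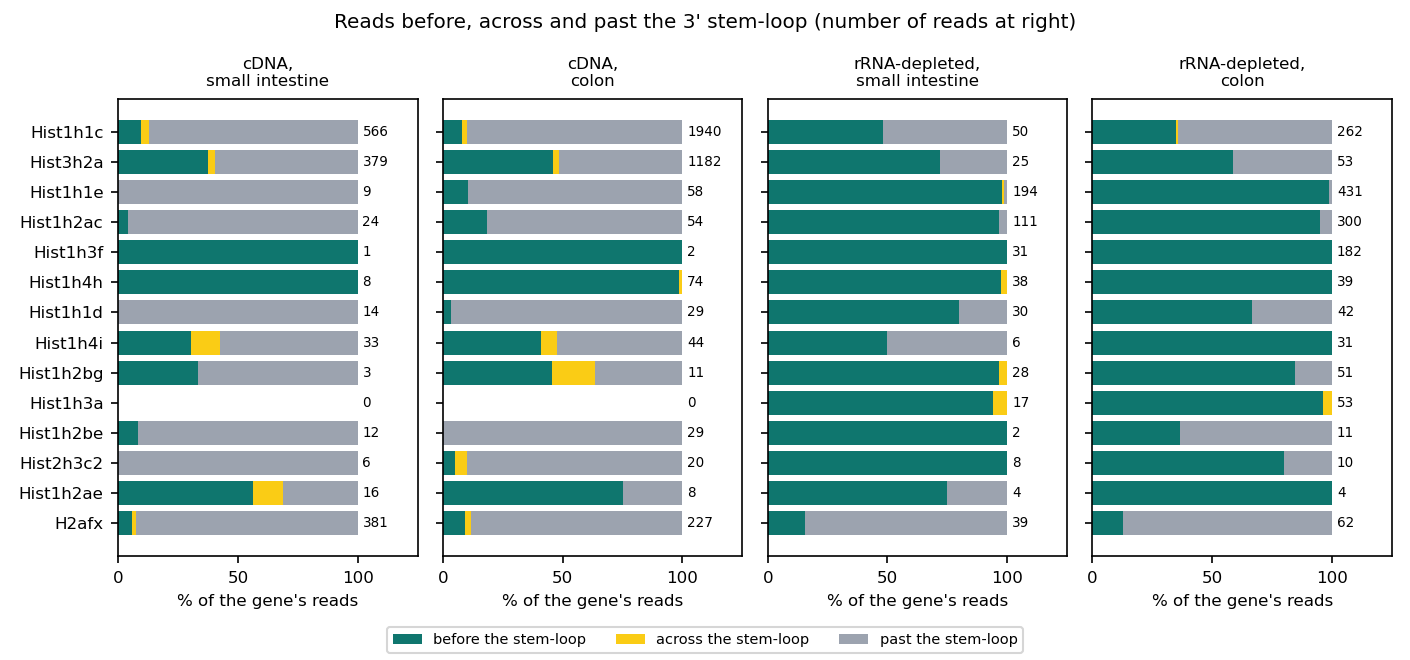
Share of each gene's reads that lay before, across and past the stem-loop, in percent, for genes whose exon block runs at least 35 bases past it and for the variant gene H2afx, with 1 panel for each library and the number of reads at the right of each bar. The reads of Hist1h1e and Hist1h2ac change from mostly past (cDNA) to mostly before (rRNA-depleted), where 66.7% and 94.0% of their uniquely placeable positions lie past, while Hist1h1c keeps over 50% of its reads past in each library. Of the rRNA-depleted Hist1h2ac reads, 74 of 111 and 229 of 300 ended at a single base before the stem-loop.

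Many reads of the rRNA-depleted libraries ended close to the stem-loop. Each read was taken as 35 bases from its start, so its end need not be the end of the RNA fragment. The intervals here take every read as separate. Over the 17 genes, 219 of 545 reads (40.2%, 36.2 to 44.4) in small intestine and 631 of 1471 (42.9%, 40.4 to 45.4) in colon ended in the 25 bases up to 6 bases behind the stem-loop. In the next 25 bases ended 4 (0.734%) and 2 reads (0.136%). Over the 17 genes the cDNA libraries showed no such step, with 23 (2.14%) and 62 reads (1.79%) in the first window and 25 (2.33%) and 54 (1.56%) in the next. Without Hist1h1c and Hist3h2a, cDNA reads numbered 8 and 21 in the first window and 1 and 5 in the next. In the 25 bases after that they numbered 10 and 12. A smaller fall at the stem-loop thus stood in these other genes with cDNA as well.

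These ends were not spread evenly over positions. In the rRNA-depleted library of colon, 229 of the 300 Hist1h2ac reads ended at 1 base, 12 bases before the end of the stem-loop, and in small intestine 74 of 111 ended at the same place. Of the Hist1h3f reads, 156 of 182 in colon and 18 of 31 in small intestine ended 16 bases before it. Hist1h1e had 133 of 431 and 45 of 194 reads that ended 10 bases before it, and Hist2h2bb 89 of 293 and 17 of 101 that ended 9 bases before it. Such stacks of equal reads also stood away from the stem-loop, for example 121 of 135 Hist1h3h reads in colon and 38 of 44 in small intestine that ended 433 bases before it, and 68 of 98 Hist1h2bk reads in colon that ended 53 bases before it. The reads carry no molecular identifiers, so copies of 1 fragment and separate fragments cannot be told apart. Counted as start points, the 68 genes had 1626, 3082, 458 and 835, and the calls by start points were 32 in small intestine and 25 in colon, against 6.85% and 5.78% of all genes.

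**Figure D4:**
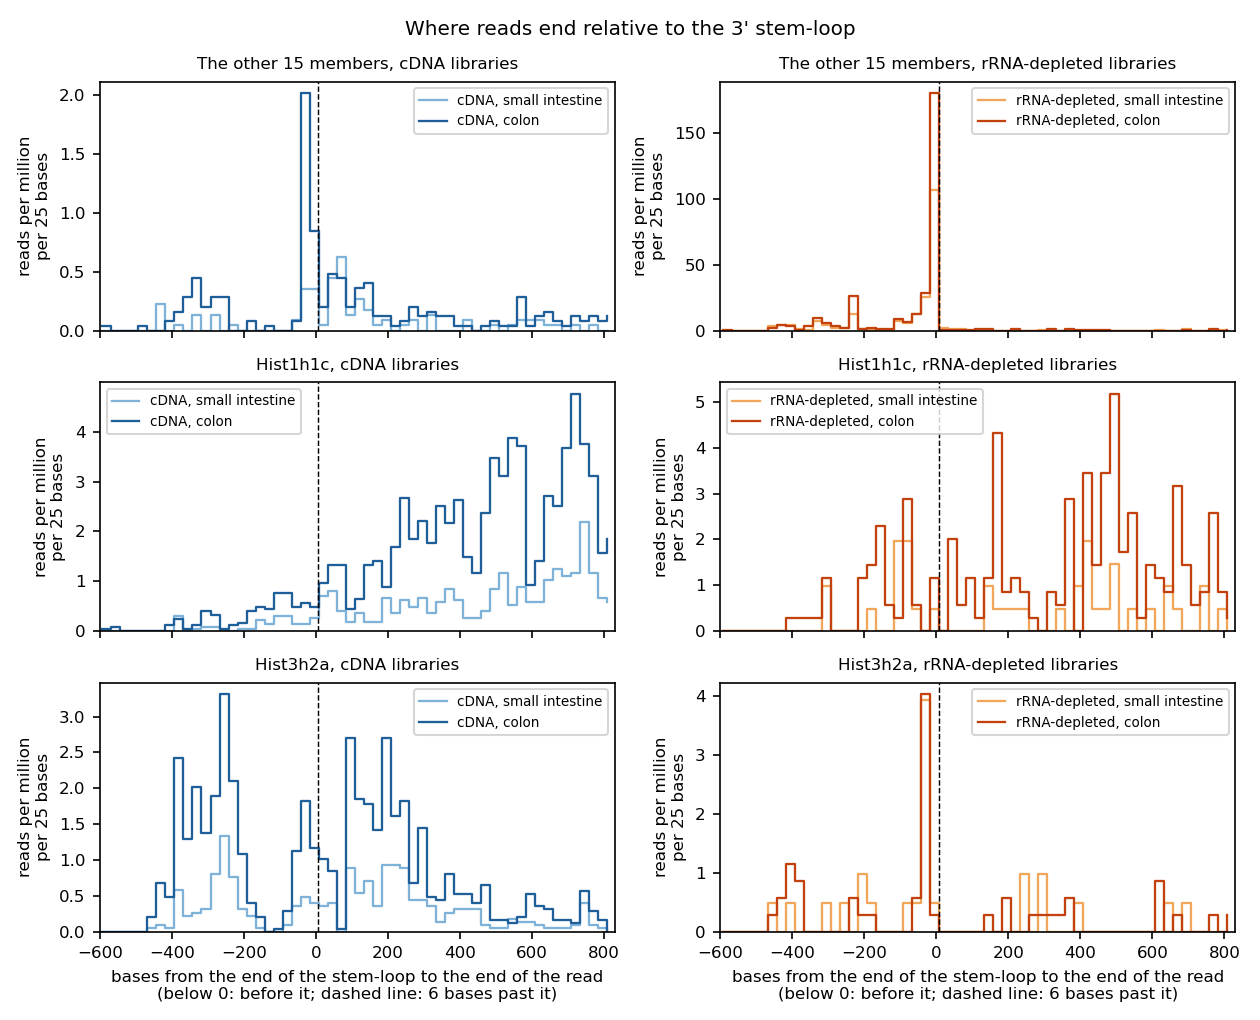
RPM by the distance in bases from the end of the stem-loop to the end of the read, in 25-base bins, for Hist1h1c, Hist3h2a and the other 15 genes whose block runs past the stem-loop, by protocol and tissue. In the other 15 genes the rRNA-depleted libraries peak just before the dashed line, set 6 bases behind the stem-loop, and fall to nearly 0 after it.

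Hist1h2bc, the gene with most cDNA reads, had another layout. Its annotation joins a coding block of 423 bases (chr13:23776068-23776490) to a second exon of 305 bases (chr13:23784045-23784349), and the stem-loop lies in the intron just behind the coding block. The coding block had 152, 280, 2 and 11 reads and the downstream exon 2809, 3949, 67 and 211, which is 94.9%, 93.4%, 97.1% and 95.1% of the reads of the gene. Only 32 positions of the coding block were uniquely placeable, against 271 of the downstream exon. In RPM per uniquely placeable kilobase, the level was 122.3, 190.3, 30.7 and 89.8 in the coding block and 453, 576, 121.5 and 221 in the downstream exon, so the downstream exon was the higher in every library. Reads that crossed the junction of both exons numbered 2, 11, 0 and 0. In the rRNA-depleted libraries the coding block rested on 2 and 11 reads.

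A hexamer AATAAA, the usual poly(A) signal, stood in the last 50 bases of the annotated transcript in 10898 of 20592 other genes (52.9%). It was found in 6 of the 21 histone genes (28.6%) that had at least 35 bases behind the stem-loop or a downstream exon, and in 1 of the other 47 (2.13%). That 1 was Hist2h2be, in which no stem-loop was found. In most of the other 47 the annotation ended before the stem-loop or a few bases past it. A signal further downstream could not be seen in them, so the contrast was largely set by annotated length. The genes were Hist1h1c, Hist1h1t, Hist1h2ae, Hist1h2bc, Hist1h2bp, Hist2h2be and Hist3h2ba. Hist1h2bc, Hist1h1c and Hist2h2be are 3 of the 4 genes with most cDNA reads, and Hist3h2a is the other. Hist1h1t, Hist1h2ae, Hist1h2bp and Hist3h2ba had at most 16 reads in a library.

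Between the tissues, calls among the histone genes were about as rare as among all genes. In the cDNA libraries 1 of 68 genes, Hist1h4h, was called higher in colon, against 2.53% of all genes, and 0 in small intestine, against 2.16%. In the rRNA-depleted libraries Hist1h2bl and Hist1h3f were called higher in colon, against 4.81% of all genes, and 0 in small intestine, against 2.77%. On the log2 scale, the median colon over small intestine ratio was 0.09 in the cDNA and 0.03 in the rRNA-depleted libraries, and 0.04 and 0.0 over all genes. With the size factors from the median of ratios, no gene was called between tissues in the rRNA-depleted libraries. With a penalty of 0.1 RPKM in place of 1, 7 genes with cDNA and 10 with rRNA depletion were called higher in colon, against 6.56% and 12.5% of all genes.

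The sums were higher in colon by 1.77-fold (1.70 to 1.83) with cDNA and 1.59-fold (1.48 to 1.71) with rRNA depletion, or 1.41-fold and 1.25-fold with the median-of-ratios scaling. In start points the summed RPKM was 195 and 315 with cDNA, but 833 and 814 with rRNA depletion, in small intestine and colon. The higher sum of RPKM in colon was thus kept with cDNA alone. Without weighting by length, histone start points with rRNA depletion were 458 of 781641 in small intestine and 835 of 1337413 in colon, a slightly larger share in colon. Hist1h1c was higher in colon by nearly the same ratio in both protocols, 3.11 (2.83 to 3.42) and 3.07 (2.26 to 4.24). Hist1h3f, with 31 and 182 rRNA-depleted reads, was 3.44-fold (2.34 to 5.20) higher in colon, most of these reads being those that ended at the same base. It had 8 and 14 start points, of 781641 and 1337413 in these libraries, so the difference was not kept in start points. Hist1h2bl, with 9 and 51 reads in the same libraries, was 3.32-fold (1.62 to 7.66) higher and is among the genes of uncertain placement. It had 4 and 5 start points, a smaller share of the library's start points in colon than in small intestine. Hist1h4h was 8.39-fold (4.04 to 20.1) higher in colon with cDNA and lower, at 0.601 (0.374 to 0.965), with rRNA depletion. The H4 class, which includes it, had ratios of 3.13 (2.23 to 4.49) and 0.945 (0.695 to 1.29), and without Hist1h4h, an alternative added after seeing the data, 1.96 (1.31 to 3.002) and 1.35 (0.883 to 2.12).

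**Figure D5:**
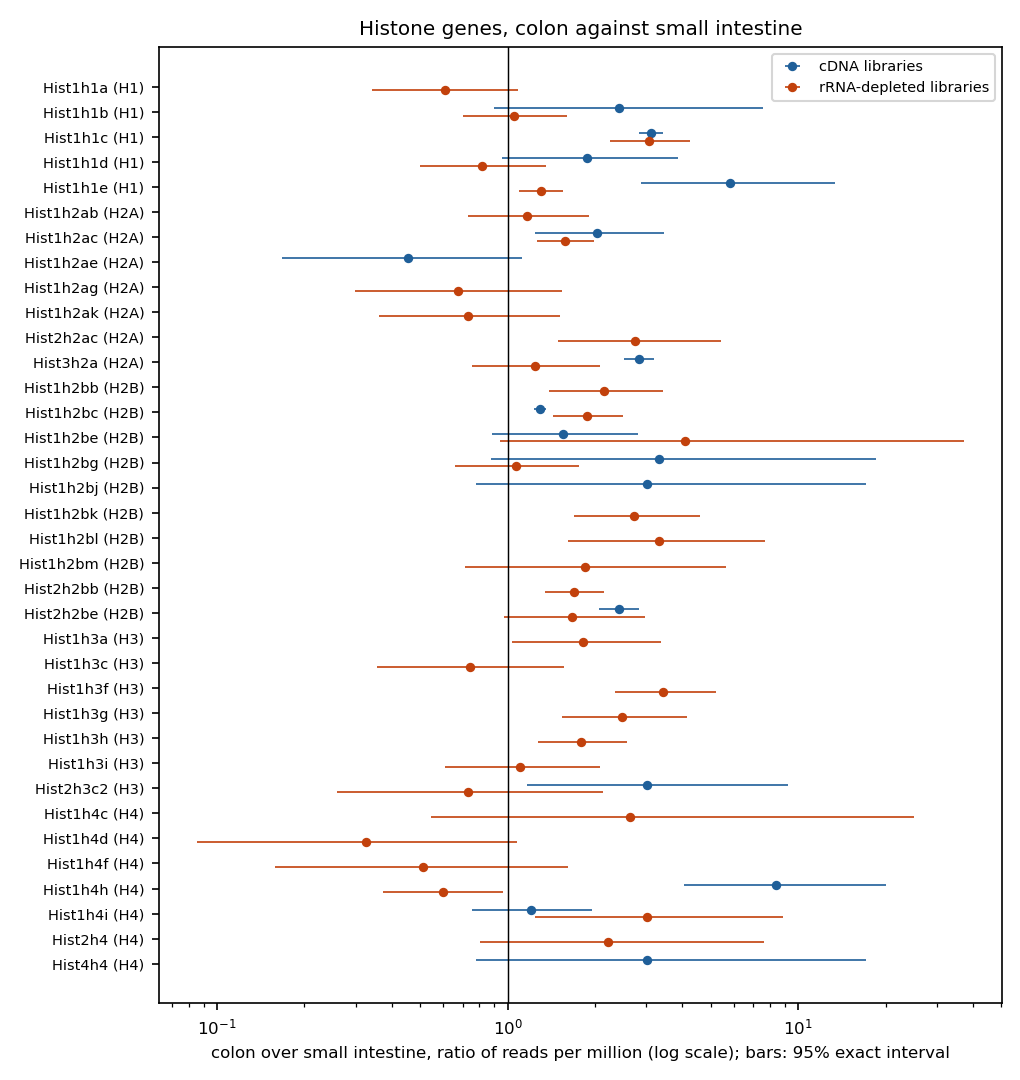
Ratio of RPM in colon to small intestine for histone genes with reads in both tissues, on a log scale, in the cDNA and the rRNA-depleted libraries, with 95% exact intervals. The points of Hist1h4h lie on opposite sides of 1, at 8.39 and 0.601, and those of Hist1h1c lie together, at 3.11 and 3.07.

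Lists of other genes tied to histones or to S phase were set beside these values. Of 11 replication-independent histone variants, which are made throughout the cell cycle, 1 was called higher in the rRNA-depleted library in each tissue and 2 (small intestine) and 3 (colon) in the cDNA library, with median log2 protocol ratios of -0.73 and -0.68. H2afz, the variant with the highest level, had 836, 842, 83.7 and 108 RPKM, and H3f3b, which encodes H3.3, had 470, 495, 223 and 217 RPKM. H2afx, a variant gene with a stem-loop of its own, was 12.5, 6.74, 14.1 and 13.1 RPKM, and 92.4%, 88.1%, 84.6% and 87.1% of its reads lay past the stem-loop in the order of libraries used above, so that it did not show the shift of Hist1h1e.

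Of 25 S phase and proliferation genes with reads, 0 were called higher with rRNA depletion in either tissue and 3 and 2 with cDNA, with median log2 ratios of -0.55 and -0.44. Pcna, the sliding clamp of the replication fork, had 89.4, 93.0, 83.1 and 68.2 RPKM, and Ccna2, the cyclin A of S phase, had 17.5, 15.7, 32.3 and 47.4 RPKM. Between the tissues, colon over small intestine, the median of this list was -0.18 with cDNA and -0.10 with rRNA depletion. The 16 genes of histone pre-mRNA processing and transcription had medians of -0.10 and 0.59, with 1 and 2 called higher with rRNA depletion and 5 and 5 with cDNA. Sympk, called higher with rRNA depletion in both tissues, had 0.162, 0.333, 28.1 and 30.6 RPKM. Its protocol ratios were 174 (103 to 315.5) and 91.8 (64.7 to 134), so ratios of this size were not limited to histone genes. The highest genes of this list, Snrpg (306, 577, 23.8 and 46.1 RPKM) and Snrpd3 (259, 324, 28.5 and 12.9 RPKM), encode Sm proteins that the U7 snRNP shares with the spliceosomal snRNPs. Slbp itself had 21.4, 12.6, 20.5 and 12.9 RPKM and did not separate the protocols.

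The 11 histone chaperones had medians of 0.71 and 0.46, with 1 and 2 called higher with rRNA depletion and 2 and 1 with cDNA, and the median-of-ratios scaling turned the colon median to -0.08. Their highest genes were Rbbp7 (11.5, 12.4, 33.1 and 66.9 RPKM) and Asf1b (54.3, 44.3, 4.302 and 7.91 RPKM), which stood in opposite order between the protocols. Of 15 RNAs listed as lacking a usual poly(A) tail, other than histone mRNAs, 3 were in this annotation, and 3 and 2 of them were called higher with rRNA depletion, with medians of 4.33 and 2.91. Of these, Neat1 has a short form with a poly(A) tail and a long form without, and its block here, of 3177 exon bases, is too short for the long form. The RNA listed as Vault had 0.517, 3.28, 341 and 230 RPKM, and the nuclear RNA Malat1 had 43.4, 66.7, 892 and 509 RPKM. Neat1 had 30.1, 237, 137 and 84.8 RPKM, higher with rRNA depletion in small intestine and lower in colon.

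Among 12 markers of B cells and germinal centres, which hold dividing cells of the gut wall outside the crypts, 0 and 0 were called higher with rRNA depletion and 1 and 0 with cDNA. Cd79b had 22.8, 12.0, 1.23 and 7.199 RPKM, and Cd79a had between 9.997 and 22.4 RPKM. The summed level of the 12 was 66.8, 39.1, 29.4 and 40.4 RPKM. It was thus lower in colon with cDNA and higher in colon with rRNA depletion, while the histone sum in reads was higher in colon with both. The 3 smooth muscle markers summed to 124, 413, 129 and 769 RPKM and 2 of them were called higher in colon in each protocol, beside histone sums that were higher in colon when counted in reads. Counted as start points, the histone sum of RPKM was not higher in colon with rRNA depletion, though the histone share of start points was slightly larger there. The part of cell type shares in the tissue differences was not tested.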

How the data were processed

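Per the labels and the series' own notes, the authors matched 35-color SOLiD reads with the corona pipeline to RefSeq exons and exon junctions of mm9, allowed 3 color mismatches, and deposited, in place of a table of counts, the placement, strand and mismatches of each uniquely placed read, for 4 libraries that were not pooled. Here these reads were counted per exon block and divided by block length and the uniquely placed reads of the library (RPKM). Reads were allowed to pass an exon border by up to 3 bases.

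With 1 library per group no test was made. Ratios carry exact conditional binomial intervals, shares Wilson intervals (95%), and the 3-fold rule adds 1 RPKM to the divisor. Alternatives changed scaling, mismatches, strand, start points, depth, divisor and low-value filters. Calls and placement were tested on simulated data.

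Members and comparison lists were chosen with earlier results of these data known. Named were all H1 genes, per other class the 4 highest with rRNA depletion and 3 highest with cDNA, the 5 largest and 5 smallest ratios among genes with 20 reads, genes with blocks past the stem-loop, testis types, and the 2 highest genes of each list, and beside these H2afx, Slbp, Sympk, Hist1h2bl and the genes behind small counts, chosen after their values were seen. Genome sequence was mm9 (NCBIM37), gene names were GENCODE M1 or refGene. Python 3.11.15, numpy 2.4.6, pandas 2.3.3, scipy 1.17.1, numba 0.67.0, pysam 0.24.0 and matplotlib 3.10.9 were used.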

Additional observations from a re-analysis of the deposited data

Results flagged for a closer look

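Hist1h4h was the 1 histone gene for which the tissues stood in opposite order in the protocols beyond the counting intervals of both. In reads per 1000000 uniquely placed reads, colon was 8.39 times small intestine (8 and 74 reads) in the cDNA libraries and 0.601 times (38 and 39 reads) in the rRNA-depleted libraries. With 1 library in each cell of the design the difference between the protocols was not tested.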

How the results depend on the processing

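No paired analysis was run, since each comparison of 2 groups had 1 pair of libraries and so no spread between pairs. With 1 library per group none was left out. A fit of protocol over both tissues with tissue as a block could have been made, with 1 residual degree of freedom, but was not run. The counts of genes called higher with rRNA depletion stayed within 1.5 times the main count under every alternative run, between 18 (at most 1 color mismatch) and 37 (penalty of 0.1 RPKM) in small intestine and between 19 and 38, for the same settings, in colon. Of all genes, 8.57% and 9.66% were called with at most 1 mismatch and 18.5% and 18.6% with the 0.1 penalty. Median-of-ratios size factors were 0.721, 0.904, 1.0997 and 1.40 relative to unique reads. They moved the colon median log2 ratio to 0.51. That median became 0.0 in both tissues with at most 1 mismatch, 1.25 and 1.08 with start points, 3.92 and 3.36 with at least 10 reads, and 2.60 and 2.02 with 0.1 RPKM added. Counts called higher with cDNA became 0 (small intestine) and 1 (colon) with start points, and in colon 2 with size factors and 2 with the 0.1 penalty. Calls between tissues, in the order cDNA colon-higher, cDNA small intestine-higher, rRNA-depleted colon-higher and rRNA-depleted small intestine-higher, became 7, 1, 10 and 4 with the 0.1 penalty (all genes 6.56%, 3.37%, 12.5% and 5.92%). With start points cDNA colon-higher, rRNA-depleted colon-higher and rRNA-depleted small intestine-higher were 2, 1 and 2, with thinned libraries cDNA colon-higher and rRNA-depleted small intestine-higher were 3 and 1, and with size factors rRNA-depleted colon-higher was 0. Summed RPKM, in the order of libraries of the report, became 242.7, 366, 513 and 826 with at most 1 mismatch, 195, 315, 833 and 814 with start points, and 466, 673, 1581 and 2506 per uniquely placeable position, and 199 and 264 in the cDNA libraries with own-strand reads. The own-strand share became 46.9% and 48.9% (cDNA) without Hist1h2bc, and with start points 47.7% (cDNA colon) and 99.6% (rRNA-depleted colon). The share past the stem-loop became 75.6% (cDNA colon) with at least 100 bases, 70.7%, 19.7% and 34.1% in the last 3 libraries with start points, and 70.5%, 60.3%, 3.62% and 4.498% without Hist1h1c and Hist3h2a, chosen after seeing the data. The pooled H2A ratio and that of Hist1h4i in colon turned to 0.925 and 0.981 with start points, also chosen after seeing the data. The cause of these moves was not tested. The rRNA-depleted library of small intestine was the shallowest, with 2035386 unique reads.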
